A study of Gasterosteus aculeatus with 79 samples.

Results

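il6st (ENSGACG00000018619) is 1 gene of the 22456 genes counted in the brains of male three-spined sticklebacks over the course of becoming a father. It was picked out by its identifier, with earlier results of these data known. Its name comes from an orthogroup of the study, in which this identifier stands beside mouse Il6st. The study describes its orthogroup lists as holding differentially expressed genes of stickleback and mouse. The count files give an identifier and a count and nothing else, so the name rests on that orthogroup.

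The experimental males formed 5 groups of 5. Males in the nest group had a nest and had not mated. Males in the eggs group were sampled 4 days after fertilization of their eggs. Early, mid and late hatching males were sampled on day 5 after fertilization, at 9 a.m., 1 p.m. and 5 p.m., as the clutch began to hatch, was partly hatched and was fully hatched. The 3 control groups, also of 5, were reproductively mature males without a nest, sampled at 9 a.m., 1 p.m. and 5 p.m. Nest, eggs and early hatching males were set against the 9 a.m. control group, mid hatching males against the 1 p.m. group and late hatching males against the 5 p.m. group. All males were adults of 1 freshwater population kept in separate tanks; their ages are not given, and no male carried a transgene or received an agent. The diencephalon, which includes the hypothalamus, and the telencephalon of the 40 males were sequenced separately, as 39 and 40 libraries. For control male 94, sampled at 1 p.m., there was only a telencephalon library. The study left 1 sample unsequenced because of low RNA quality.

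In mammals, il6st encodes gp130, the signal-transducing receptor chain that the cytokines of the interleukin-6 family share, among them interleukin-6, leukemia inhibitory factor, ciliary neurotrophic factor and oncostatin M. Each cytokine brings gp130 together with another receptor chain or another gp130. Janus kinases bound to the receptor then phosphorylate STAT3, which moves to the nucleus, and suppressors of cytokine signaling (SOCS proteins) end the signal. Neurons, glia and endothelial cells of the mammalian brain carry gp130, and the pathway is known there for its roles in the response to injury, in the formation of astrocytes and in the hypothalamic control of food intake.

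On average, males with a nest, eggs or hatching fry had less il6st RNA than control males in both brain regions. Averaged over the 5 stages, il6st fell in the diencephalon by 0.35 on the log2 scale, which is 21.7% lower, and in the telencephalon by 0.26 on the log2 scale, which is 16.4% lower. Every one of the 25 experimental males was below the median of its time-matched control group, in the diencephalon and in the telencephalon. The share of all genes with this pattern was not computed. The change ran from -0.44 to -0.23 over the stages in the diencephalon and from -0.31 to -0.17 in the telencephalon, on the log2 scale, and a difference among the 5 stages was not detected in either region.

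The libraries held 15839679 to 37371744 counts on genes, with a median of 20788830. Of these, 920 to 3178 fell on il6st, so counting error alone gave a coefficient of variation of 1.77% to 3.30% in a library. No pair of libraries agreed in more than 90% of its gene counts, and each of the 79 libraries was most similar to a library of its own region. Levels are given below in CPM, counts scaled to a common library total, after TMM normalization, which corrects that total for a few very abundant genes. The 2 regions were normalized separately. Markers of neurons, of the endothelium and of the telencephalon could not be checked, because the naming tables used here did not match them, and of the diencephalon markers only pomca was matched.

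In the diencephalon, il6st stood at 54.0, 59.4, 64.5, 72.4 and 73.8 CPM in nest males, against 67.7, 88.0, 93.4, 94.6 and 94.7 CPM in control males of 9 a.m. Control male 7 was low and fell among the nest males, while the other 4 control males were above all of them. Eggs males had 55.7, 57.7, 67.4, 77.5 and 82.6 CPM. Early hatching males had 61.3, 74.3, 76.2, 79.8 and 81.1 CPM. In both groups too, 4 of the 5 control males of 9 a.m. were above every experimental male, and control male 7 lay inside the range.

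The other stages of hatching did not overlap with their control groups in this region. Mid hatching males had 71.0, 75.8, 78.9, 80.0 and 83.3 CPM, against 84.5, 84.6, 92.3 and 119.9 CPM in the 4 control males of 1 p.m. Late hatching males had 61.1, 62.0, 63.0, 80.7 and 81.7 CPM, against 85.3, 93.4, 93.7, 98.3 and 102.0 CPM in control males of 5 p.m. The late males fell into 3 low values and 2 high values, and even the high ones were below the lowest control male. Of all 18609 genes kept in the diencephalon, 3.11% had every mid hatching male below every control male of its hour, and 4.56% had every late hatching male below every control male.

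In the telencephalon, nest males had 69.1, 71.5, 72.3, 80.0 and 80.4 CPM, against 80.1, 85.0, 86.2, 94.5 and 94.7 CPM in control males of 9 a.m. A single nest male reached the lowest control male, which was again male 7. Eggs males had 52.3, 73.5, 76.7, 80.1 and 80.9 CPM, with male 88 far below the rest. Early hatching males had 56.5, 70.1, 72.5, 76.7 and 78.7 CPM, all below every control male. Of the 18397 genes kept in the telencephalon, 0.576% showed such a separation at early hatching.

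Mid hatching males overlapped most with their controls in the telencephalon, with 67.2, 75.0, 78.6, 87.4 and 87.8 CPM against 78.7, 78.7, 94.1, 97.3 and 97.8 CPM in control males of 1 p.m. Late hatching males had 62.3, 62.8, 70.4, 74.8 and 76.2 CPM, against 78.4, 82.0, 85.9, 86.7 and 89.6 CPM in control males of 5 p.m. The late groups did not overlap, which held for 3.36% of all genes. Over all stages, 17 of 25 experimental males in the diencephalon and 21 of 25 in the telencephalon were below the lowest male of their own control group. How many other genes reached such counts was not computed.

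**Figure D1:**
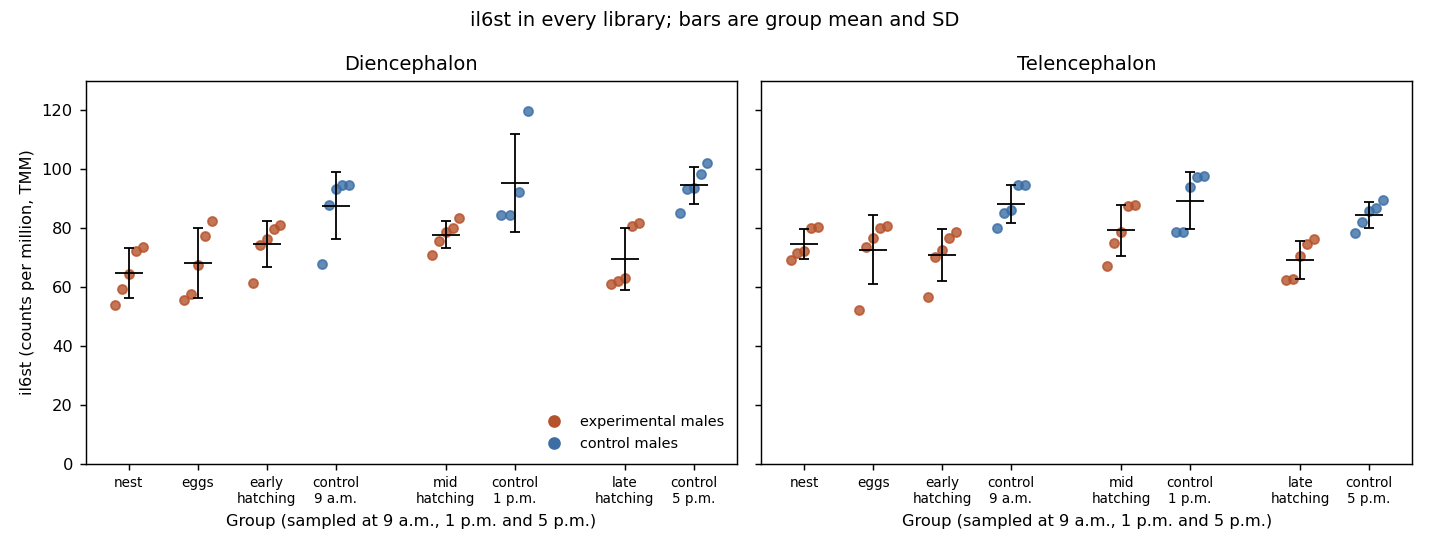
il6st in CPM (TMM) on the vertical axis, 1 point per library, for the 5 experimental groups and their time-matched control groups in the diencephalon (left) and the telencephalon (right); black bars are the group mean and SD. Each experimental group has a lower mean than its control group, and the late groups do not overlap with the 5 p.m. control males in either region.

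Ordered by their means, the 8 groups formed the same 2 blocks in each region, with all 5 experimental groups below all 3 control groups. The same males gave both regions, and the share of all genes ordered this way was not computed. In the diencephalon the nest group was lowest at 64.8 ± 8.44 CPM, followed by eggs at 68.2 ± 11.9, late hatching at 69.7 ± 10.5, early hatching at 74.6 ± 7.89 and mid hatching at 77.8 ± 4.66 CPM (SD, n = 5 each). The 9 a.m. control group stood at 87.7 ± 11.5 CPM and the 5 p.m. control group at 94.6 ± 6.28 CPM (SD, n = 5 each), and the 1 p.m. control group at 95.3 ± 16.8 CPM (SD, n = 4). Each group differed from the next in this order by less than the larger of the 2 SDs. The widest step, 9.89 CPM, lay between the mid hatching group and the 9 a.m. control group.

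In the telencephalon the order was late hatching at 69.3 ± 6.49, early hatching at 70.9 ± 8.74, eggs at 72.7 ± 11.8, nest at 74.7 ± 5.19 and mid hatching at 79.2 ± 8.71 CPM (SD, n = 5 each). Control males of 5 p.m. followed at 84.5 ± 4.36, those of 9 a.m. at 88.1 ± 6.37 and those of 1 p.m. at 89.3 ± 9.77 CPM (SD, n = 5 each). Here too, no step between neighbouring groups exceeded the larger SD, and the widest, 5.31 CPM, again separated mid hatching from the lowest control group. Mid hatching was thus the experimental group with the highest mean in both regions, and the order of the other stages was not shared.

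The comparison the study was built on is that of each stage with its time-matched control group. All 8 groups of a region entered a single edgeR model, whose quasi-likelihood test gave p-values that were adjusted by Benjamini-Hochberg over all genes kept. The study's threshold of 0.01 was used. The study applied it to a false discovery rate estimated by permuting sample labels, so calls here need not match its own. Among the diencephalon stages, late hatching had a log2 fold change of -0.44 (SE 0.12, adjusted p = 0.0143), which missed this threshold, with all 5 males lower than every control male. In that contrast 2.82% of genes passed and 1.71% passed as lower. The nest stage had the same size of difference, -0.44 (SE 0.12, adjusted p = 0.0793), where 0.0537% of genes passed.

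The other 3 stages in the diencephalon had smaller values, none past the threshold. They were -0.36 with eggs (adjusted p = 0.129, where 0.0322% of genes passed), -0.29 at mid hatching (adjusted p = 0.284) and -0.23 at early hatching (adjusted p = 0.805), each with an SE of 0.12 by the same test. At early and mid hatching the quasi-likelihood test called 0 genes of the whole table, against 1170 and 2581 genes at an unadjusted p under 0.05, and DESeq2 called 4 genes in each. The raw p of il6st was 0.0527 at early hatching and 0.0228 at mid hatching.

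Without control male 7, the low male of 9 a.m., the 3 contrasts it enters grew to -0.52 with a nest (adjusted p = 0.0325), -0.44 with eggs (adjusted p = 0.0621) and -0.31 at early hatching (adjusted p = 0.573), by the same test. Without control male 91, the high male of 1 p.m., the mid hatching value shrank to -0.17 (adjusted p = 0.646). Leaving out late male 10 or control male 97 of 5 p.m. brought late hatching past the threshold, with adjusted p of 0.00913 and 0.00894. DESeq2 and the likelihood ratio test also called it, with adjusted p of 0.00578 and 0.00861.

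In the telencephalon no single stage passed. The log2 fold changes, by edgeR's quasi-likelihood test, were -0.24 with a nest (adjusted p = 0.247), -0.28 with eggs (adjusted p = 0.272), -0.31 at early hatching (adjusted p = 0.194), -0.17 at mid hatching (adjusted p = 0.91) and -0.29 at late hatching (adjusted p = 0.219), each with an SE of 0.10. Without eggs male 88 the eggs value shrank to -0.17 (adjusted p = 0.618), and without mid male 80 the mid hatching value shrank to -0.11 (adjusted p = 0.993). Few genes of any kind passed there. The test called 2 genes of the whole table with a nest (0.0109%), 1 with eggs (0.00544%) and 0 at each stage of hatching. At an unadjusted p under 0.05 there were 2042 genes at early, 1024 at mid and 2577 at late hatching, and DESeq2 called 35, 15 and 10.

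Taking the 5 stages as one comparison, the mean change was -0.35 in the diencephalon (SE 0.065, 95% interval -0.49 to -0.22, adjusted p = 0.00135, edgeR's quasi-likelihood test). It ranked at place 64 of 18609 genes by p. In that comparison 4.84% of genes passed in either direction and 2.75% passed as lower, and the median log2 fold change of all genes was -0.0037. The direction, adjusted p and place of il6st in the diencephalon are not independent evidence, since the study came to the gene through comparisons made on these samples. The call held without each of the 39 libraries in turn, with changes of -0.40 to -0.32. It was lost when the percentage of reads outside genes was added to the fit, at -0.19 (adjusted p = 0.392), and with a score of myelin markers as a covariate, at -0.33 (adjusted p = 0.0136).

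The mean change in the telencephalon was -0.26 (SE 0.055, 95% interval -0.37 to -0.15, adjusted p = 0.00791, edgeR's quasi-likelihood test), at place 89 of 18397 genes by p. There 0.609% of genes passed in either direction and 0.364% passed as lower. The same males gave this region, so its values are not independent of how the gene was chosen either. The adjusted p lay close to the threshold, and leaving out 1 library moved it to between 0.00573 and 0.0293, with changes of -0.28 to -0.24. The call was lost, at adjusted p of 0.01 to 0.0293, without any one of 23 of the 40 libraries. These were nest males 33, 70 and 82, eggs male 60, early male 16, mid males 80, 81 and 86, late males 15, 32 and 47, all 5 control males of 9 a.m., control males 12, 72 and 91 of 1 p.m. and control males 66, 90, 95 and 97 of 5 p.m.

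**Figure D2:**
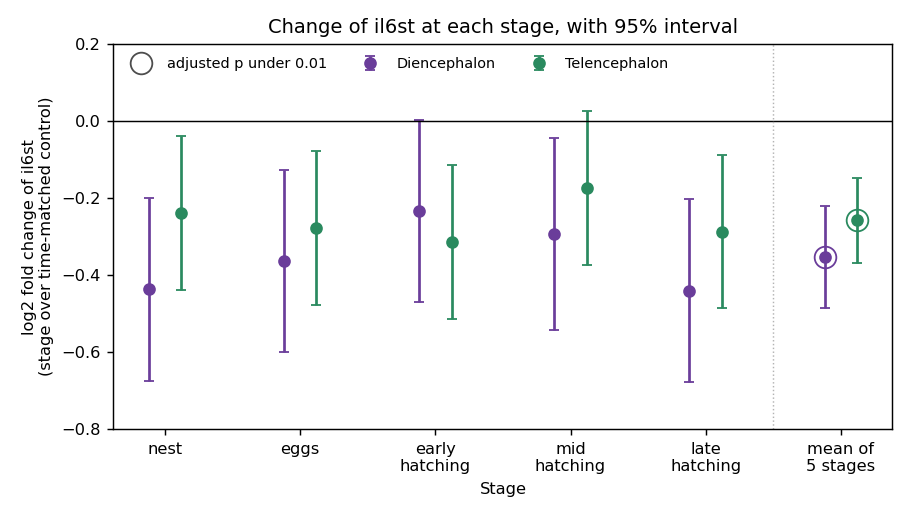
Log2 fold change of il6st over the time-matched control group on the vertical axis, for each stage and for the mean of the 5 stages, in the diencephalon (purple) and the telencephalon (green); bars are 95% intervals and open circles mark an adjusted p under 0.01. All 10 stage values lie below 0, from -0.44 to -0.17, and the means of -0.35 and -0.26 carry the circles.

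Of 18207 genes kept in both regions, 34 (0.187%) passed for the mean change in both, il6st among them. Of these, 9 (0.0494%) passed as lower in both and 25 (0.137%) as higher in both. The 34 genes were 3.77% of the 901 genes called in the diencephalon and 30.4% of the 112 called in the telencephalon. The same males gave both regions, so these calls are not independent of each other, nor those of il6st of how the gene was chosen. A log2 fold change under 0 at all 5 stages, as il6st had, was found for 15.8% of genes in the diencephalon, for 10.6% in the telencephalon and for 4.91% in both.

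Whether il6st changed by a different amount at different stages was tested on its own. The 5 changes did not differ detectably in the diencephalon (F = 0.982, adjusted p = 0.779) or in the telencephalon (F = 0.359, adjusted p = 0.952, edgeR's quasi-likelihood test on 4 contrasts). This test called 0 genes of the whole table in either region, while 1753 genes in the diencephalon and 1397 in the telencephalon had an unadjusted p under 0.05, and DESeq2 called 19 and 7. Consecutive stages of 9 a.m. were also set against each other. Eggs against nest gave 0.07 in the diencephalon (95% interval -0.16 to 0.31, adjusted p = 0.994) and -0.04 in the telencephalon (95% interval -0.24 to 0.16, adjusted p = 0.956, same test). Early hatching against eggs gave 0.13 in the diencephalon (95% interval -0.11 to 0.37, adjusted p = 0.775) and -0.04 in the telencephalon (95% interval -0.24 to 0.16, adjusted p = 1, same test). The intervals still allow steps of about the size of the fall itself.

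Time of day was compared within control males. In the diencephalon il6st differed from 9 a.m. by 0.12 at 1 p.m. (95% interval -0.13 to 0.37, adjusted p = 0.937) and by 0.11 at 5 p.m. (95% interval -0.13 to 0.34, adjusted p = 0.717), by edgeR's quasi-likelihood test. In the telencephalon the differences were 0.02 at 1 p.m. (95% interval -0.18 to 0.22, adjusted p = 0.998) and -0.06 at 5 p.m. (95% interval -0.26 to 0.14, adjusted p = 0.862). Between 5 p.m. and 9 a.m. the test called 3 genes of the whole table in the diencephalon (0.0161%) and 1 in the telencephalon (0.00544%). The lowest 9 a.m. male, male 7, was the same animal in both regions.

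Set against the telencephalon in one fit of all 79 libraries, the diencephalon had il6st at a log2 difference of -0.07 in experimental males (SE 0.049, 95% interval -0.16 to 0.03, adjusted p = 0.232) and of 0.04 in control males (SE 0.064, 95% interval -0.08 to 0.17, adjusted p = 0.622). Neither passed by edgeR's quasi-likelihood test, in comparisons where 53.9% and 38.3% of 18958 genes did. Among the 8 groups, the nest males had the region difference farthest from 0, with -0.24 (SE 0.11, adjusted p = 0.0775), where 29.2% of genes passed. With the male as a block, which takes the pairing into account, its adjusted p was 0.0194 by the same test, still not past the threshold. The mean change over the 5 stages differed between the regions by -0.09 (SE 0.087, 95% interval -0.26 to 0.09, adjusted p = 0.903). The differences of the single stages between regions ran from -0.22 with a nest to 0.07 at early hatching, with adjusted p of at least 0.933. For the mean difference the test called 0 genes, with 1584 at an unadjusted p under 0.05, and 5 genes when the male was a block.

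The 2 libraries of a male could be followed as a pair. Across 39 males, the deviations of il6st from the group mean in the diencephalon and in the telencephalon had a Pearson r of 0.316 (permutation p = 0.0503) and a Spearman rho of 0.234 (permutation p = 0.151), two-sided with 100000 resamples. Here and for the share of reads below, the permutation shuffled deviations across groups and ignored that group means had been removed. Its p-values may therefore be too small. Without the 2 males farthest from the median in the diencephalon, r was 0.269. In 25 of 39 males both regions deviated to the same side. Eggs male 88 was low in both, and early male 13 was the highest of its group in the diencephalon at 81.1 CPM and the lowest in the telencephalon at 56.5 CPM. The relation did not pass a threshold of 0.05, alone or adjusted over the 3 relations computed here (adjusted p = 0.0503 for r).

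**Figure D3:**
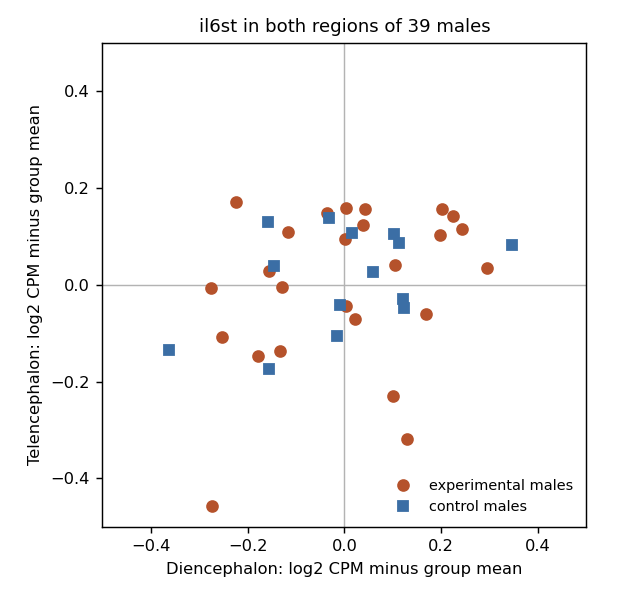
Deviation of il6st (log2 CPM minus the group mean) in the diencephalon on the horizontal axis and in the telencephalon on the vertical axis, 1 point for each of 39 males. The points rise loosely to the right, with r of 0.316, and the lowest point on the vertical axis is eggs male 88.

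The spread of il6st among males was wider than counting error and ordinary for a gene of its abundance. Its biological coefficient of variation, which edgeR estimates from the spread within groups, was 0.132 in the diencephalon and 0.113 in the telencephalon. That was above 65.2% and 44.7% of the genes with a similar mean level in each region. Within groups the CV of the CPM values ran from 5.99% at mid hatching to 17.6% in control males of 1 p.m. in the diencephalon, and from 5.16% in control males of 5 p.m. to 16.2% with eggs in the telencephalon.

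The share of uniquely aligned reads that fell outside annotated genes moved with the groups and with il6st in the diencephalon. In the diencephalon it was 49.3% ± 1.61 in experimental males (SD, n = 25) and 46.2% ± 2.0 in control males (SD, n = 14). In the telencephalon it was 46.8% ± 1.64 in experimental males (SD, n = 25) and 45.8% ± 1.60 in control males (SD, n = 15). At late hatching in the diencephalon it was 49.4% ± 1.47, against 44.5% ± 0.994 in control males of 5 p.m. (SD, n = 5 each).

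Within groups of the diencephalon, males with more reads outside genes had less il6st, with a Pearson r of -0.571 over 39 libraries (permutation p = 0.00013, adjusted 0.00039) and a Spearman rho of -0.496 (permutation p = 0.0015). Without the 2 libraries farthest from the median share, r was -0.527 (permutation p = 0.00089). It was -0.611 within the 25 experimental libraries and -0.491 within the 14 control libraries. In the telencephalon r was -0.42 over 40 libraries (permutation p = 0.00676, adjusted 0.0101) and rho was -0.224 (permutation p = 0.166). Without the 2 farthest libraries r was weaker, at -0.318 (permutation p = 0.0511). It was -0.503 within the 25 experimental libraries and -0.164 within the 15 control libraries. Over all libraries of a region, the r between a gene and the share was lower than that of il6st for 1.46% of all genes in the diencephalon and 7.42% in the telencephalon.

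With this share as a covariate, the mean change in the diencephalon no longer passed, as given above, and late hatching was -0.13 (adjusted p = 0.769, edgeR's quasi-likelihood test). The test then called 0 genes of the table for the mean change, against 901 without the covariate. In the telencephalon the mean change with the covariate was -0.24 and still passed (adjusted p = 0.0088). The share differs between the groups in the diencephalon, so there the effect of the stages and that of the share cannot be told apart.

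**Figure D4:**
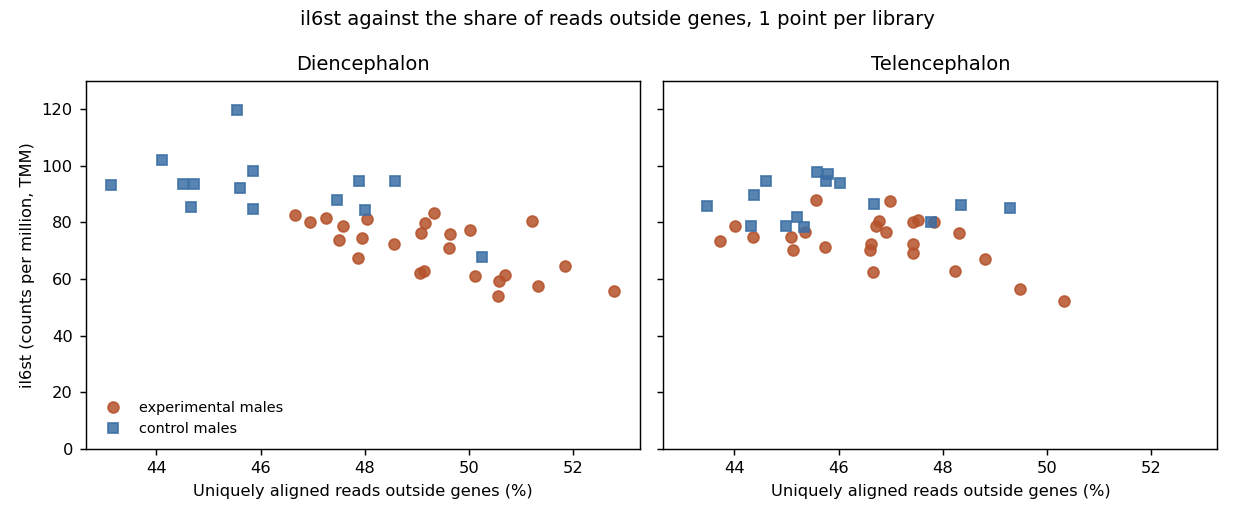
il6st in CPM (TMM) on the vertical axis against the percentage of uniquely aligned reads outside genes on the horizontal axis, 1 point per library, for experimental males (circles) and control males (squares) in the diencephalon (left) and the telencephalon (right). In the diencephalon experimental males lie to the right of most control males as well as below them, and in the telencephalon the 2 groups share most of the horizontal range.

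The lane label in the sample titles followed the groups. All 29 control libraries carried the letter M there, as did 2 of 50 experimental libraries, both of late male 65. The letter was read here as multiple lanes, and the different labels of the other experimental libraries as a single lane. Lane label and group cannot be told apart. Late male 65 had 80.7 CPM in the diencephalon, the second highest of the late males there, against 85.3 CPM in the lowest control male of 5 p.m. In the telencephalon it had 76.2 CPM, the highest of the late males, against 78.4 CPM in the lowest control male. It was thus nearer to the control males than most late males, and below all of them. The part of the lane label in the result was not tested.

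RNA of other tissue and of other cell types also varied between libraries, and in whole tissue fewer cells of a type and less RNA per cell cannot be told apart. Summed over 7 of 10 listed pituitary markers that were matched, telencephalon libraries held 0.82 to 401 CPM (median 8.34) in experimental males and 0.96 to 19338 CPM (median 9.1) in control males. Of these 7 markers, 2 were called lower for the mean change in the telencephalon, where 0.364% of all genes were. One of them was pomca, the precursor of pituitary and hypothalamic peptides and the only matched marker of the diencephalon. Its mean change was -5.95 on the log2 scale (adjusted p = 0.00262, edgeR's quasi-likelihood test). It was not lower at every stage, with 1.65 at late hatching (adjusted p = 0.76, same test). Within control males of the telencephalon, pomca differed by -10.4 at 5 p.m. from 9 a.m., which did not pass the threshold by the same test. The sum over 11 matched genes of photoreceptors and the pineal was 2.16 to 105 CPM in experimental males and 2.08 to 542 CPM in control males of the telencephalon. Of the 11, 7 were called lower, and the share of all genes was the same 0.364%. Markers could be matched only through the study's tables of differentially expressed genes and orthogroups, drawn in part from these samples. The counts of called markers can therefore not be set against the share of all genes. slc1a2a, a glutamate transporter, was the only gene matched from the list for radial glia and astroglia. It had 0.0 to 1.82 CPM (median 0.15) in experimental males and 0.0 to 5.28 CPM (median 0.23) in control males of the telencephalon. Its mean change was -2.06 there (adjusted p = 0.0322) and -0.15 in the diencephalon (adjusted p = 0.858), past the threshold in neither. At so low a level slc1a2a is no measure of radial glia and astroglia, and its part in the result was not tested. None of the matched markers was at 0 in every library. The mean change of il6st in the telencephalon was -0.22 without the 3 libraries highest in pituitary markers (adjusted p = 0.0671, edgeR's quasi-likelihood test) and -0.29 without the 3 highest in photoreceptor markers (adjusted p = 0.0306). The pituitary ones were of control males 39 and 41 of 9 a.m. and 96 of 1 p.m., and the photoreceptor ones of control males 7 and 74 of 9 a.m. and 12 of 1 p.m. In both cases the call was lost.

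In the diencephalon 5 of 8 listed myelin markers were matched, and 1 of them was called lower for the mean change, as were 2.75% of all genes. It was mag, a glycoprotein of the myelin sheath, which fell by 0.37 on the log2 scale (adjusted p = 0.00691, edgeR's quasi-likelihood test). The others did not pass and ran from -0.20 for mpz to 0.06 for mbpb. The 5 summed to 510 to 841 CPM in experimental males and 542 to 1073 CPM in control males of the diencephalon. With their score as a covariate, il6st had a mean change of -0.33 in the diencephalon (adjusted p = 0.0136) and -0.26 in the telencephalon (adjusted p = 0.0156), past the threshold in neither. Summed over 4 matched markers of microglia and macrophages, cells that carry gp130 in mammals, libraries of the diencephalon held 69.3 to 989 CPM in experimental males and 78.0 to 1007 CPM in control males. None of the 4 passed in either region, and with their score as a covariate the mean change of il6st was -0.36 in the diencephalon and -0.25 in the telencephalon, past the threshold in both.

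The rest of the pathway was visible only in part. Of 75 symbols listed for ligands, receptor chains, Janus kinases, STAT factors, inhibitors, adaptors and STAT3 target genes, 5 could be matched to 6 genes. The ligands, the other receptor chains, the Janus kinases, the adaptors, and socs3 and lifr among the direct partners of gp130, were not analysed here. None of the 6 genes passed in any contrast of either region. That was 0 of 120 combinations of gene, contrast and region by edgeR's quasi-likelihood test, of which 10 had an unadjusted p under 0.05, and the lowest adjusted p was 0.103. Of all genes, at most 4.84% passed in a contrast of the diencephalon and 0.609% in the telencephalon. An unadjusted p under 0.05 was found for 944 to 5583 of 18609 and for 530 to 3400 of 18397 genes per contrast. The counts are therefore no result about the pathway.

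stat3, the transcription factor that gp130 activates, had 61.5 to 126 CPM (median 70.9) in experimental males and 63.9 to 101 CPM (median 80.3) in control males of the diencephalon. Its mean change was -0.07 there (SE 0.071, adjusted p = 0.515) and 0.08 in the telencephalon (SE 0.088, adjusted p = 0.671, edgeR's quasi-likelihood test). The groups overlapped widely in both regions. In the telencephalon stat3 ranged from 75.5 to 168 CPM (median 91.7) in experimental males and from 63.7 to 163 CPM (median 85.4) in control males.

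Both genes named socs7, which encodes an inhibitor of the SOCS family, had higher medians in experimental males. ENSGACG00000014777 had 11.7 to 67.6 CPM (median 51.6) in experimental males and 20.7 to 57.1 CPM (median 32.8) in control males of the diencephalon. Its log2 fold changes there were 0.13 with a nest, 0.08 with eggs, 0.12 at early hatching, 0.96 at mid hatching (SE 0.33, adjusted p = 0.218) and 0.74 at late hatching (SE 0.30, adjusted p = 0.103), with 0.41 for the mean change (SE 0.18, adjusted p = 0.116, edgeR's quasi-likelihood test). The second, ENSGACG00000014776, had a mean change of 0.31 in the diencephalon (adjusted p = 0.267), and in the telencephalon the mean changes were 0.23 and 0.15 (adjusted p = 0.433 and 0.685).

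The 3 matched target genes of STAT3 were fos, which is also an immediate early gene of neuronal activity, and the transcription factors cebpb and cebpd. Their median mean change was -0.02 in the diencephalon, where the median of all genes was -0.0037. fos had the lowest p of them, with -0.67 at late hatching in the diencephalon (SE 0.30, adjusted p = 0.129) and -0.61 in the telencephalon (SE 0.29, adjusted p = 0.334, edgeR's quasi-likelihood test). Its mean change over all stages was -0.02 and -0.07 in these regions. cebpb spread widely among males, from 4.59 to 117 CPM in experimental males and from 4.11 to 49.7 CPM in control males of the diencephalon, with a mean change of 0.13 (SE 0.37). cebpd had a mean change of -0.08 in the diencephalon and 0.02 in the telencephalon.

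Genes whose pattern among males was most like that of il6st were ranked by the Pearson r of their deviations from the group mean. All genes of a library share its depth and its share of reads outside genes, so r is given as a description. For the 100 genes most like il6st, the median r with that share was -0.442 in the diencephalon and -0.309 in the telencephalon. Over all genes it was -0.011 and -0.017. The part of the share in the likeness was not tested. Over 39 diencephalon libraries the r with il6st ran from -0.768 to 0.882 with a median of -0.01, and 425 of 18608 genes exceeded 0.7. The closest gene of all was ENSGACG00000015417, which has no name in the tables used here, with an r of 0.882. Only 652 of these genes had a name. The closest named ones were xpr1, a phosphate exporter, at 0.808, MEX3A, an RNA-binding protein, at 0.75, prkca, the alpha form of protein kinase C, at 0.745, cd99l2, a membrane protein of cell adhesion, at 0.713, and 1 of 2 genes named RFX7, a transcription factor, at 0.691.

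Over 40 telencephalon libraries the closest gene was ENSGACG00000007543, also without a name, with an r of 0.83, and 156 of 18396 genes exceeded 0.7. The closest named genes were nfat5, a transcription factor of the response to salt stress, at 0.776, zgc:77849 at 0.708, MEX3A at 0.692, opcml, a cell adhesion molecule, at 0.67, and FRS3, an adaptor of growth factor receptors, at 0.66. MEX3A was thus among the closest 5 named genes in both regions. In the telencephalon its r was 0.85 over the 25 experimental libraries and -0.079 over the 15 control libraries, and in the diencephalon 0.818 over 25 experimental and 0.603 over 14 control libraries. The top 100 genes of the regions shared 26, which is 26% of each list, and none of the 26 had a name. stat3 had an r of 0.355 in the diencephalon and 0.402 in the telencephalon.

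For the mean change in the diencephalon, 3 of the 9 named genes above, stat3 aside, were called lower, and 2.75% of all genes were. Names came from the study's lists of differentially expressed genes and orthogroups, drawn in part from these samples. The named genes were thus selected in part for such differences, and the shares cannot be set against each other. xpr1 fell by 0.61 on the log2 scale for the mean change (adjusted p = 0.00483), prkca by 0.60 (adjusted p = 0.00246) and cd99l2 by 0.46 (adjusted p = 0.00499), by edgeR's quasi-likelihood test. In the telencephalon their mean changes were -0.27, -0.05 and -0.19, none past the threshold. nfat5 had mean changes of -0.38 in the diencephalon (adjusted p = 0.0286) and -0.36 in the telencephalon (adjusted p = 0.0607), and MEX3A had -0.36 (adjusted p = 0.102) and -0.33 (adjusted p = 0.111) in these regions, none past the threshold. RFX7 (adjusted p = 0.0368), FRS3 (0.027), opcml (0.0502) and zgc:77849 (0.0259) did not pass in the diencephalon either. The 26 unnamed genes in the top 100 of both regions all had mean changes below 0 in each region. Their values ran from -0.78 to -0.18 in the diencephalon and from -0.36 to -0.05 in the telencephalon. Most of the 26 passed as lower in the diencephalon and none passed in the telencephalon. The share of all genes below 0 in both regions was not computed for the mean change.

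The mean change of il6st was below 0 under every alternative computed in each region. In the diencephalon it lay between -0.42 and -0.19 and was lost as a call with the share of reads outside genes and with the myelin score as covariates. In the telencephalon it lay between -0.29 and -0.22, and 6 of 12 alternatives lost the call, with adjusted p of up to 0.0671, as did leaving out any of the 23 libraries named above.

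**Figure D5:**
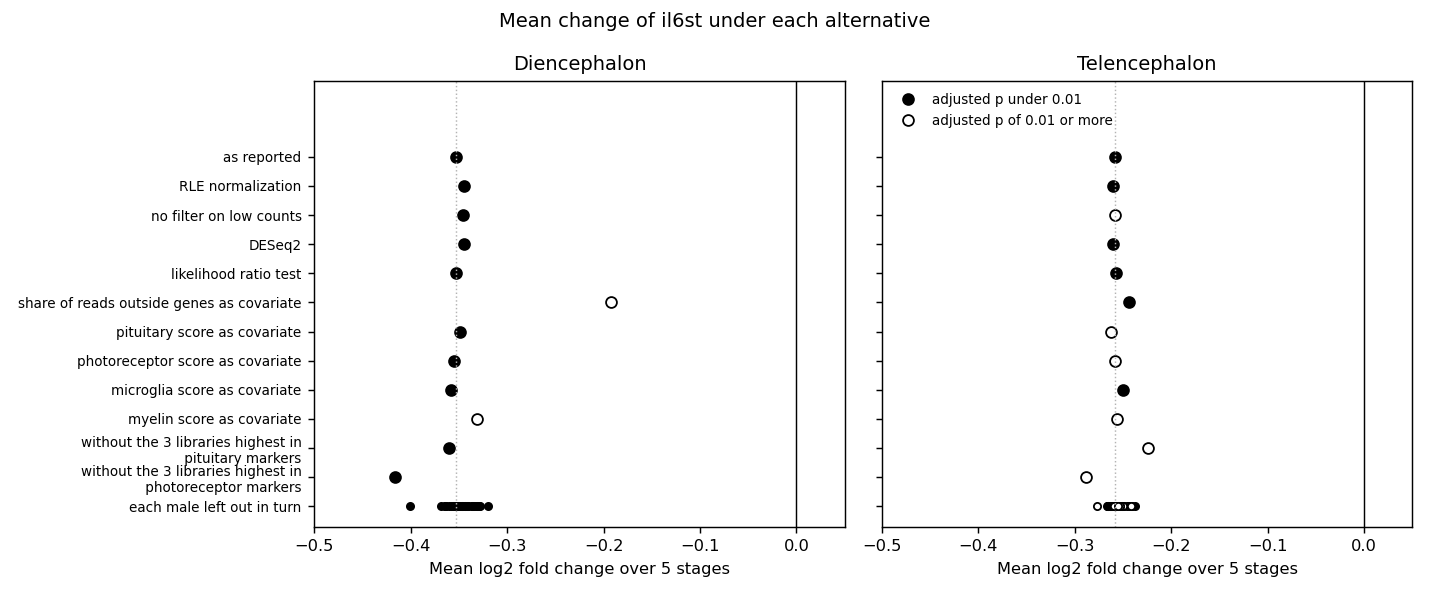
Mean log2 fold change of il6st over the 5 stages on the horizontal axis, under each alternative setting (rows), in the diencephalon (left) and the telencephalon (right); filled points have an adjusted p under 0.01, open points 0.01 or more, and the bottom row shows each library left out in turn. All points lie below 0, from -0.42 to -0.19 in the diencephalon and from -0.29 to -0.22 in the telencephalon.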

How the data were processed

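Telencephalon and diencephalon RNA of each male was extracted, DNase treated, made into stranded mRNA libraries and sequenced from 1 end. Per the submitters' processing notes, CASAVA 1.8.2, TopHat2 2.0.8 and HTSeq 0.6.1 were used. The authors aligned the reads to the repeat masked stickleback genome, assigned them to Ensembl genes and left out reads that fell in more than 1 gene. They deposited whole-number counts per gene for each library, without normalization, and 5 rows that are no gene. These 5 rows stayed out of library sizes and tests and made up 48.4% to 57.0% of the summed rows of a library, which include alignments in several places. The methods name no strand option for the counting and state that programs ran at their defaults unless noted.

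Groups, male numbers and hours came from the sample labels. A gene was kept in a region if 5 or more of its libraries reached 0.5 CPM. Counts were TMM normalized in edgeR 4.0.16 (R 4.3.3), and quasi-likelihood models without covariates were fitted: all 8 groups of a region for the contrasts within it, and all 79 libraries for differences between regions. p-values were adjusted by Benjamini-Hochberg over all genes tested, at 0.01. The mean change is the average of the 5 stage contrasts. log2 CPM for deviations and likeness used a prior count of 2, and deviations were taken from the mean of the group. The samples are separate males.

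The 2 libraries of a male come from the same animal by the labels. Over 18207 genes their deviations from the group means correlated at 0.485 on average and at 0.235 or more in each of 39 males, and in 38 of 39 the other library of the male was the closest.

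Alternatives were RLE size factors, all genes with any count, DESeq2 1.42.0, the likelihood ratio test with tagwise dispersions, the 2 groups of a contrast alone, a threshold of 0.05, the share of uniquely aligned reads outside genes as a covariate, the male as a block and each library or male left out in turn. Scores of pituitary, photoreceptor, microglia and myelin markers (mean log2 of CPM + 0.5) as covariates, and fits without the 3 libraries highest in pituitary or photoreceptor markers, were chosen after seeing the data. The scripts were tested on simulated counts. The gene, the pathway and marker lists and the tests were chosen with earlier results of these data known. Besides il6st and stat3, the text names pathway members past the threshold or otherwise the lowest p of their list, and the 5 named genes most like il6st in each region. Others (cebpb, cebpd, the other socs7 identifier, mag), the closest unnamed gene of each region and the changes of the 26 unnamed genes were added after their values were seen. Names came from the study's tables of differentially expressed genes and of orthogroups, of which 1 was used in part, and covered 682 genes. Listed pathway genes and markers could be matched only through these tables. Mouse data, the territorial challenge and the regulatory network were not analysed here. Intervals are 95%. Python 3.11.15, numpy 2.4.6, pandas 2.3.3, scipy 1.17.1 and matplotlib 3.10.9 made tables and figures.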

Additional observations from a re-analysis of the deposited data

Results flagged for a closer look

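In each of the 16 groups of 4 or 5 libraries, the gap between the lowest or highest value of il6st and its neighbour was compared with the range of the group. Chance alone sets apart about 1 group in 20, and 2 libraries stood apart. In the 9 a.m. control group of the diencephalon, male 7 had 67.7 CPM, 0.751 of the range below the next male (critical value 0.71 for 5 males). In its telencephalon library male 7 was also the lowest of its group, at 80.1 CPM. In the eggs group of the telencephalon, male 88 had 52.3 CPM, 0.742 of the range below the next male, and it was the lowest of its group in the diencephalon as well, at 55.7 CPM. Both libraries had the highest share of reads outside genes of their groups, 50.3% in each. No difference in the change of il6st between the regions passed its test.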

How the results depend on the processing

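Over 30 comparisons of il6st and 756 alternative values, 704 kept direction and side of the threshold, 31 lost a call, 5 gained one and 16 changed sign, each of these 16 in a difference near 0 that had passed no test. The cause of a change was not tested.

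The mean change in the diencephalon lost its call when the share of reads outside genes was a covariate (-0.19) and with the myelin score (-0.33). The mean change in the telencephalon lost it without a filter (-0.26, adjusted p = 0.0105, edgeR's quasi-likelihood test), with the pituitary, photoreceptor and myelin scores as covariates (-0.26 each) and without the 3 libraries highest in pituitary (-0.22) or photoreceptor markers (-0.29), and each male left out gave -0.28 to -0.24. Late hatching in the diencephalon gained a call at a threshold of 0.05 (-0.44), with DESeq2 (-0.42) and with the likelihood ratio test (-0.44), and each male left out gave -0.50 to -0.38.

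Signs changed for control males of 5 p.m. against 9 a.m. in the diencephalon with the share as a covariate (-0.095) and in the telencephalon without the 3 libraries highest in pituitary markers (0.022). Control males of 1 p.m. against 9 a.m. in the telencephalon turned to -0.048 with that covariate and to -0.079 without the 3 highest in photoreceptor markers. With each male left out, this difference ran from -0.0243 to 0.0586, and in the diencephalon from -0.00043 to 0.17. Eggs against nest ran from -0.0052 to 0.15 in the diencephalon and from -0.081 to 0.056 in the telencephalon, and early hatching against eggs from -0.13 to 0.035 in the telencephalon. The differences between regions ran from -0.16 to 0.023 with eggs and from -0.014 to 0.15 at early hatching.

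With the male as a replicate block, the diencephalon minus telencephalon difference was -0.068 in experimental males (adjusted p = 0.119) and 0.025 in control males (adjusted p = 0.708), and the mean change differed by -0.072 between regions (adjusted p = 0.676, edgeR's quasi-likelihood test). In nest males the region difference was -0.24 with the block (adjusted p = 0.0194, same test), against an adjusted p of 0.0775 without it. The block changed no call of il6st.

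Counts over all genes moved more. For the mean change in the diencephalon they were 901 as reported, 1486 with DESeq2, 0 with the share as a covariate and 50 with the myelin score. At late hatching there they were 524 as reported, and 1128 with DESeq2, 795 with the likelihood ratio test, 0 with the share, 1 with the myelin score, 8 with the 2 groups alone and 54 without the 3 libraries highest in pituitary markers. For the mean change in the telencephalon 112 became 265 with DESeq2, 235 with the likelihood ratio test, 65, 27 and 60 with the pituitary, photoreceptor and myelin scores and 62 and 22 without the libraries highest in pituitary and photoreceptor markers. With a nest or eggs the counts lay between 0 and 76 in either region. Of the top 100 genes most like il6st, 32 in the diencephalon and 6 in the telencephalon stayed in the top 100 over control libraries only, and 65 in each over experimental libraries only. The 2 groups alone give no value for the mean change or for differences among stages.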
